A study of Mus musculus with 4 samples.

Results

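Expression of 9 mouse genes of the peroxisome (Hao1, Hao2, Cat, Uox, Ehhadh, Scp2, Pex11a, Crat and Pxmp2) was compared between livers that make SV40 oncoproteins and wild-type livers, with the oxidase gene Hao2 set against the others. The members were all probe sets whose only gene symbol on the platform is one of these 9. That gave 11 probe sets of 8 genes, out of 12422 probe sets in the table that are not array controls. Hao1 is the sole symbol of no probe set in that annotation and was not analysed here. The genes were chosen by function with the signal differences between PEPCK-TAg and wild-type arrays in view, Hao2 for one of the largest. For the members these differences are therefore a description, and they are given without a p-value.

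The livers came from PEPCK-TAg transgenic mice and from non-transgenic wild-type (WT) mice. The transgene encodes the SV40 large T and small t oncoproteins, and its name refers to PEPCK, a gene expressed in liver and kidney. All mice were males of the hybrid strain B6SJL, 50 to 66 days old, and had eaten a diet of 65% protein and 10% carbohydrate freely for 4 weeks after weaning. Total liver RNA of each group was hybridised to 2 Affymetrix MG_U74Av2 arrays, 4 arrays in all. Whether the 2 arrays per group hold RNA of separate animals, or of pools, is not stated in the labels, so p-values measure only the spread between these arrays, which may be technical.

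Peroxisomes are small organelles in which oxidases use molecular oxygen and release hydrogen peroxide, which catalase breaks down. In the liver they shorten very-long-chain and branched fatty acids, make bile acids and ether lipids, and oxidise urate and glycolate. In rodent liver the nuclear receptor PPAR alpha is known to raise many of these genes, Ehhadh and Pex11a among them. Hao2 and Hao1 encode related flavin oxidases of 2-hydroxy acids: the Hao1 product oxidises glycolate, and the Hao2 product prefers longer chains.

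The promoters are shown first, so that the letters before Hao2 can be set beside those before members that differed from it in their signals. Of the 9 genes, 7 have a RefSeq promoter (GRCm38.p6), and the 250 bases before the start were searched on both strands for 5 motifs. GTTAAT, the core of a site of the liver factor HNF1, occurred 3 times before Hao2, at 250 to 245, 224 to 219 and 42 to 37 bases before the start. At least 1 match was present in 6.43% of the 32851 promoters of the same length, and promoters with 3 matches were not counted. AGGTCA, a single repeat of the sites bound by nuclear receptors such as PPAR alpha, occurred once before Cat and once before Scp2, and in 14% of all promoters. The other 3 motifs were the STAT palindrome TTCNNNGAA (7.02% of promoters), the TATA box TATAAA (12.4%) and the E2F site TTTGGCGC (0.417%). None of these 3 was found before any of the 7 genes, and none of the 5 before Hao1, Uox, Ehhadh or Pex11a. The 3 windows with a match are printed 5′ to 3′ on the strand of the gene, with GTTAAT or AGGTCA on either strand in capitals. All 3 lie on the minus strand: Hao2 at chr3:98893231-98893480, Cat at chr2:103485154-103485403 and Scp2 at chr4:108118548-108118797.
Hao2: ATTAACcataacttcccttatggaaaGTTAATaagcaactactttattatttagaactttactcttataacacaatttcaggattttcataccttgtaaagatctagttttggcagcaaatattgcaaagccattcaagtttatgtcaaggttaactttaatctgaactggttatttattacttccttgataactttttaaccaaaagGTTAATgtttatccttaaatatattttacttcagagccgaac
Cat: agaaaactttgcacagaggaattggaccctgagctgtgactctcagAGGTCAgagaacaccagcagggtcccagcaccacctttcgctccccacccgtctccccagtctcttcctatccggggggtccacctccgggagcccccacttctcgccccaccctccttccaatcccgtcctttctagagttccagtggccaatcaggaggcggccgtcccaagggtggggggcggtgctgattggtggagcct
Scp2: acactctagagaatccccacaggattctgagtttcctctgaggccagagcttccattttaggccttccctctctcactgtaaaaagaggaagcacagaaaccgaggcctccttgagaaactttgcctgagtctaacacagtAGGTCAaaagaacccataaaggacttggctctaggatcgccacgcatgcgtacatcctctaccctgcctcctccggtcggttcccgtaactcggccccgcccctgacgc
The windows also differ in base composition: G and C made up 28.4% of the bases before Hao2, 41.6% before Hao1, 42.8% before Uox, 53.6% before Scp2, 55.6% before Pex11a, 60.4% before Ehhadh and 62.0% before Cat. The shares of promoters with a motif were not matched for base composition, and GTTAAT is mostly A and T. A match in these letters is not a measured binding site.

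Signals are MAS5 values on a linear scale, with the arrays scaled to a common level. Hao2 (probe set 103649_at, on chromosome 3) read 603.7 and 354.3 on the PEPCK-TAg arrays, against 1.9 and 5.2 on the WT arrays. Both WT values lie under the floor of 10.6, the 20th percentile of all signals, which was set because lower signals have no order. Hao2 was thus well measured only in PEPCK-TAg liver, at a mean signal of 479 ± 176 (SD, n = 2 arrays), and the groups did not overlap. With both WT values raised to the floor, Hao2 was 43.7-fold higher in PEPCK-TAg liver (log2 difference 5.45 ± 0.38 SE). The SE thus holds no spread between the WT arrays of Hao2. Hao2 was among the 7877 probe sets tested, those above a signal of 41.3 on at least 2 of the 4 arrays, only through its PEPCK-TAg arrays. The size is set by the floor: one at the 10th percentile gave a log2 difference of 6.58 and a floor at the 40th percentile gave a log2 difference of 3.48. The higher of the PEPCK-TAg arrays was the one scanned on the same day as a WT array, and that pair alone gave 5.83.

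**Figure D1:**
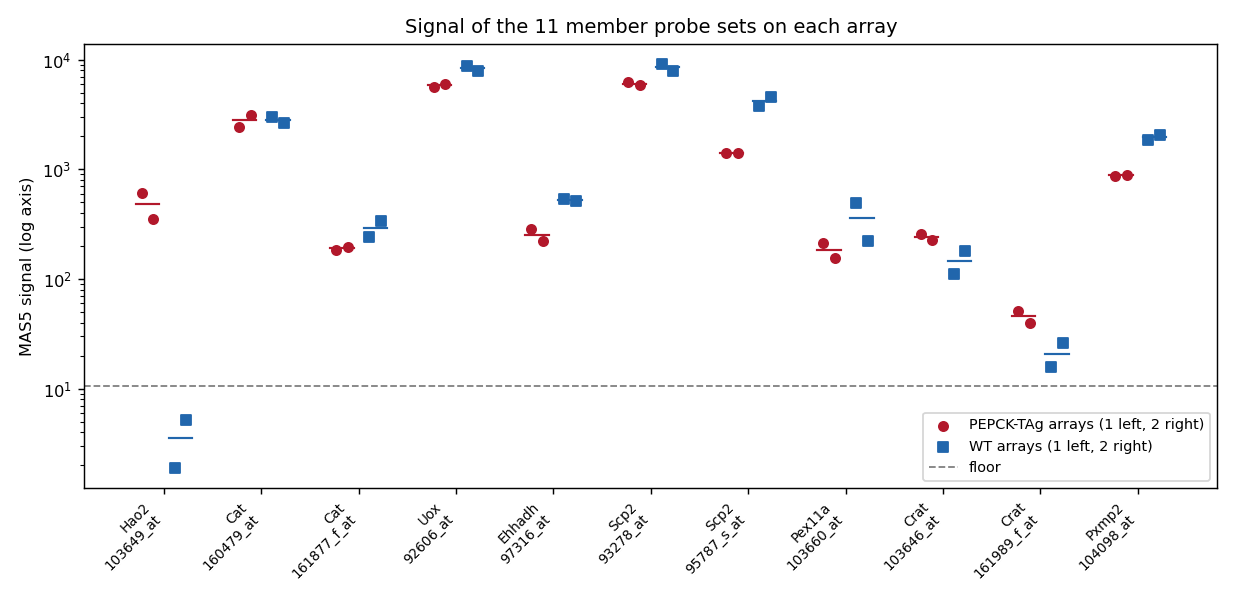
MAS5 signal (log axis) of the 11 probe sets on each array, with PEPCK-TAg arrays as red circles, WT arrays as blue squares, short lines for group means and the dashed line for the floor of 10.6. Only Hao2 has WT arrays under the floor, at 1.9 and 5.2, with PEPCK-TAg arrays at 603.7 and 354.3.

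Uox, the other oxidase among the members, is urate oxidase, which turns urate into the precursor of allantoin in mice. Its probe set read 5584.7 and 6041.4 on the PEPCK-TAg arrays, against 8816.8 and 7909.8 on the WT arrays. Both PEPCK-TAg arrays lay below both WT arrays, with a log2 difference of -0.52 ± 0.21 SE, but its sign turned to 0.036 under quantile normalization. Hepatocyte markers, as listed for this tissue, were lower as well: the summed signal of 8 of them was 42187 and 53405 on the PEPCK-TAg arrays, against 78475 and 82507 on the WT arrays, and 3 of the 8 fell by limma (Ttr, Tat and Cyp2e1), beside 3.34% of all genes tested. Their median log2 difference was -0.61 with 7 of the 8 lower, but -0.26 with 5 of the 8 lower under quantile normalization, where Alb gave 0.036 and Cps1 0.0096. Tat and Ttr passed there too, and Cyp2e1 did not. Alb stayed bright, between 9379.4 and 17286 on the 4 arrays. Fewer hepatocytes and less RNA per hepatocyte cannot be told apart in whole liver, here or for the lower members and gene lists that follow. Cat encodes catalase, and its brighter probe set (160479_at) read 2447.2 and 3132.4 on the PEPCK-TAg arrays, against 2996.4 and 2617.6 on the WT arrays. These groups overlapped, with a log2 difference of -0.017 ± 0.24 SE, or 0.26 under quantile normalization. A further Cat probe set (161877_f_at) read 185.4 and 195.4 on the PEPCK-TAg arrays, against 243.7 and 338.8 on the WT arrays, with no overlap (log2 difference -0.59 ± 0.28 SE). Its name marks probes that can match a family of transcripts, and the Cat probe sets thus disagree on whether the groups are apart.

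Among enzymes of fatty acid breakdown, Ehhadh encodes the bifunctional enzyme that hydrates and dehydrogenates acyl-CoA in the peroxisome. It read 282.9 and 222.6 on the PEPCK-TAg arrays, against 539.4 and 513.7 on the WT arrays. It was 2.10-fold lower in PEPCK-TAg liver with no overlap (log2 difference -1.07 ± 0.25 SE). Scp2 encodes a peroxisomal thiolase and, from an inner start of the same gene, the lipid carrier sterol carrier protein. Its probe set 93278_at read 6250.7 and 5858.2 on the PEPCK-TAg arrays, against 9097.5 and 7873.8 on the WT arrays. That log2 difference was -0.48 ± 0.22 SE, with no overlap, and its sign turned to 0.071 under quantile normalization. Probe set 95787_s_at of Scp2 read 1394.9 and 1411.6 on the PEPCK-TAg arrays, against 3776.3 and 4582.8 on the WT arrays, 2.96-fold lower (log2 difference -1.57 ± 0.22 SE, or -1.31 under quantile normalization). This was the lowest of the member differences, and both Scp2 probe sets had PEPCK-TAg arrays below the WT arrays at different sizes. The sources used here do not say which Scp2 transcripts each probe set reads.

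Crat, carnitine acetyltransferase, moves acetyl groups from CoA to carnitine in peroxisomes and mitochondria, and it was the only other member with a higher mean in PEPCK-TAg liver. Probe set 103646_at read 258.0 and 228.7 on the PEPCK-TAg arrays, against 111.4 and 179.1 on the WT arrays. The groups did not overlap (log2 difference 0.78 ± 0.32 SE), and the difference was 0.44 without WT 1 and 1.12 without WT 2. The dimmer probe set 161989_f_at, at 51.5 and 39.8 on the PEPCK-TAg arrays against 15.6 and 26.1 on the WT arrays, did not reach the filter level on 2 arrays and was not in the fit. Its log2 difference of 1.17 shrank to 0.16 with a floor at the 40th percentile.

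Membrane proteins complete the set. Pxmp2 forms a channel in the peroxisomal membrane, and read 869.5 and 889.7 on the PEPCK-TAg arrays, against 1850.0 and 2051.8 on the WT arrays. The arrays of each group lay close together, and Pxmp2 was 2.22-fold lower in PEPCK-TAg liver (log2 difference -1.15 ± 0.22 SE). Pex11a, a factor of peroxisome division, read 213.8 and 154.3 on the PEPCK-TAg arrays, against 489.1 and 223.4 on the WT arrays. Its WT arrays stood far apart, so the log2 difference of -0.86 ± 0.42 SE rests on WT 1: it was -0.30 without WT 1 and -1.43 without WT 2.

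Across the 10 probe sets of the 7 genes other than Hao2, 8 had a lower mean in PEPCK-TAg liver and 2, both of Crat, a higher one. Of these 10, 7 were lower without overlap between the groups, where 26.5% of all probe sets tested were, and 2 were higher, where 33.3% were. Under quantile normalization 5 of the 10 were lower without overlap and 3 higher, beside 34.7% and 27.4% of the probe sets tested. Of all 11 member probe sets, 5 differed 2-fold or more without overlap (Hao2 and the dim Crat probe set higher, and Ehhadh, Pxmp2 and Scp2 95787_s_at lower), where 20.5% of the probe sets tested did. The 3 lower ones, all among the 10, stand beside 5.87% of the probe sets tested, and the 2 higher ones beside 14.7%. Over all probe sets tested that rule split into 1154 higher and 462 lower, and into 887 and 695 under quantile normalization. Under linear scaling the dim Crat probe set was not among those tested, yet it is in the counts and not in the shares. Without it Hao2 is the only member 2-fold higher without overlap, chosen for its size and tested only through its PEPCK-TAg arrays. The contrast was known when the members were listed, so these counts describe them and are no test. By the brightest probe set of each gene, 6 of the 7 other genes were lower and their median log2 difference was -0.52, against 0.072 over the 5954 genes tested. Under quantile normalization only 3 of the 7 were lower, and the sign of their median turned, to 0.036, against -0.057 over the genes tested. The log2 difference of Hao2, with WT at the floor, exceeded the median of the others by 5.97, or by 5.34 under quantile normalization.

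**Figure D2:**
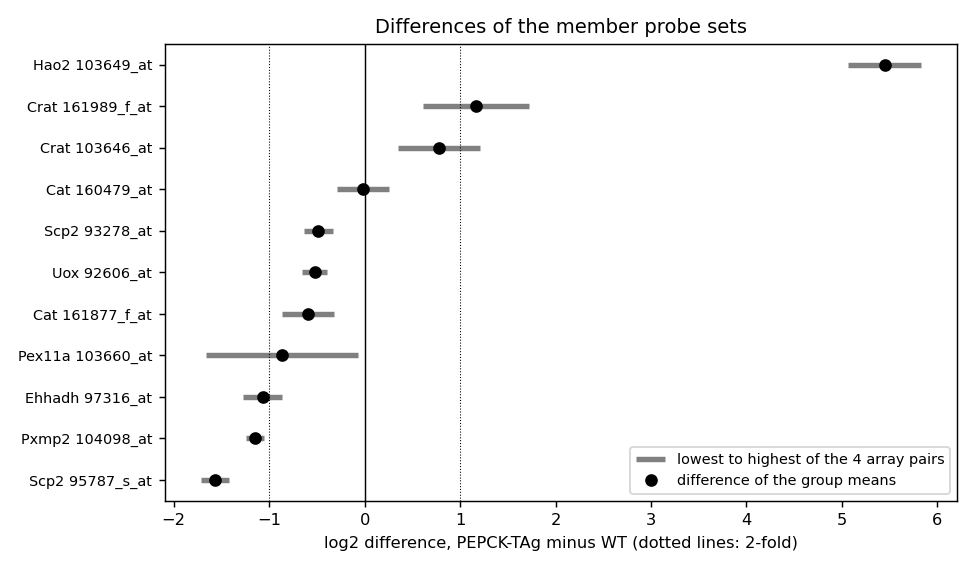
Log2 difference of each member probe set, PEPCK-TAg minus WT, as the difference of group means (black points) with the lowest to highest of the 4 array pairs (grey bars); dotted lines mark 2-fold. Hao2 stands at 5.45, all others between -1.57 and 1.17, and the bar of Pex11a is the longest, down to -1.66.

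The scaling matters most for the bright members. Quantile normalization changed the median log2 difference of the probe sets tested by -0.13. For the 178 with a mean signal of 4000 or more, the median of the shifts of single probe sets was 0.47. These 178 include Uox and Scp2 93278_at. The differences of Hao2, Cat 161877_f_at, Ehhadh, Pxmp2, Pex11a, Crat and Scp2 95787_s_at kept their sign under every setting run.

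**Figure D3:**
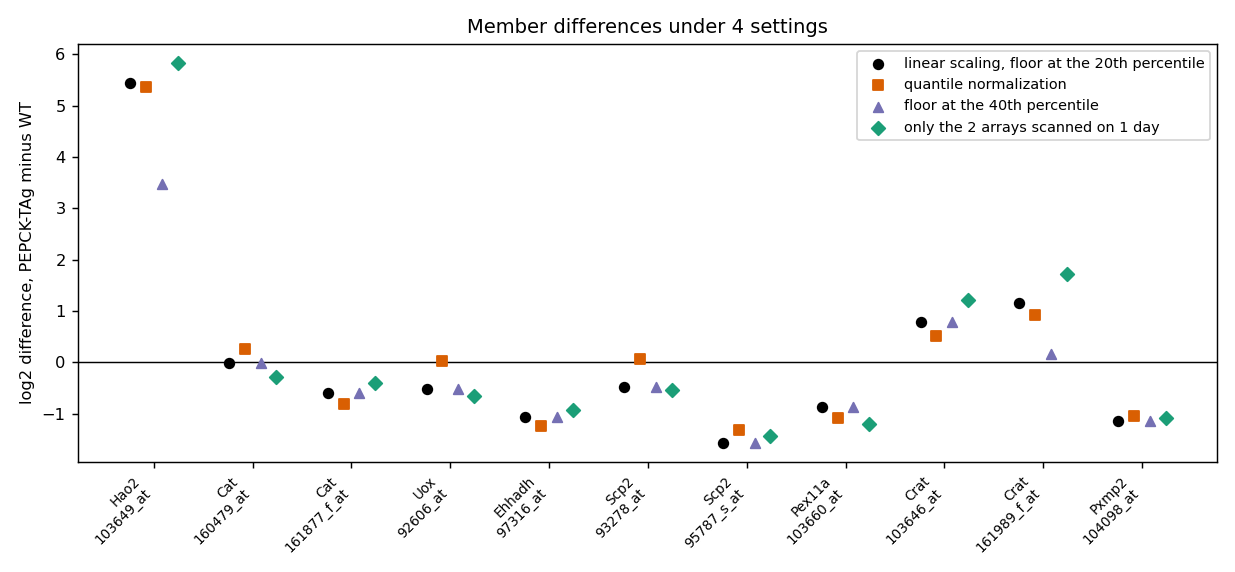
Log2 difference, PEPCK-TAg minus WT, of each member probe set under linear scaling (black circles), quantile normalization (orange squares), a floor at the 40th percentile (purple triangles) and the same-day pair of arrays alone (green diamonds). Uox and Scp2 93278_at move to 0.036 and 0.071 under quantile normalization, and Hao2 to 3.48 with the higher floor.

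The genes nearest to Hao2 in their 4 log2 values, by Euclidean distance among probe sets with 1 symbol, were Top2a (0.56), Kif20a (0.58), Pfkp (0.68), Hmgb2 (0.84) and Anln (0.87). Top2a is a topoisomerase, Kif20a a kinesin of cytokinesis, Anln a scaffold of the dividing cell's furrow, Hmgb2 a chromatin protein and Pfkp a phosphofructokinase. Top2a read 655.6 and 425.7 on the PEPCK-TAg arrays, against 7.3 and 14.8 on the WT arrays. The measure covers 4 arrays only, and nearness of this kind is shared by any probe set that was dim in WT and bright in PEPCK-TAg liver.

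Other genes of the peroxisome, which the rule did not list, were tested too. These lists, and those that follow, were chosen with earlier results of these data known. Their p-values and counts are therefore no independent support. The genes were compared by limma with Benjamini-Hochberg adjustment over all 7877 probe sets, 1 probe set (the brightest) per gene. Of 36 such genes tested, 9 fell in PEPCK-TAg liver at an adjusted p under 0.05, beside 3.34% of all genes tested. A further gene, Abcd2, passed with a higher signal (9.56% of all genes tested did), but it entered the test only through its PEPCK-TAg arrays. Of the other 35 genes none was higher at that threshold by limma, and 1 was at an unadjusted p under 0.05. Of the 5566 genes that did not enter through 1 group only, 952 were higher at that unadjusted p. In the same fit 2394 of the 7877 probe sets passed it in either direction. These counts, and the shares of 3.34% and 9.56%, stand beside the gene lists that follow too. The median log2 difference of the 36 genes was -0.53 (-0.34 under quantile normalization), and 27 of the 36 had a lower mean. No gene of this list, nor any other probe set, passed without PEPCK-TAg 1, without PEPCK-TAg 2 or with a block for the fluidics station. At an unadjusted p under 0.05, 12 of the 36 genes passed each time, and 1348, 1433 and 1432 of all probe sets. PEPCK-TAg 2 was the only array on its station, so the station block leaves it out in effect and is no separate check. With no filter on dim probe sets none of the 37 peroxisomal genes then tested passed (15 at an unadjusted p). Without an intensity trend in the variance 5 passed, 4 of them lower, and the higher one was Abcd2.

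Of 16 genes of peroxisomal beta-oxidation and acyl transport tested, 4 fell, with a median log2 difference of -0.57. Abcd3, a transporter that carries branched acyl groups and bile acid precursors into the peroxisome, read 1905.5 and 2731.5 on the PEPCK-TAg arrays, against 7818.6 and 7036.5 on the WT arrays (log2 difference -1.70 ± 0.26 SE, limma adjusted p = 0.00897). Abcd2, a related importer of very-long-chain acyl groups, read 73.1 and 90.2 on the PEPCK-TAg arrays, against 3.0 and 12.6 on the WT arrays. Both WT signals lay under the filter level and 1 under the floor, so its log2 difference of 2.81 is given without a p-value. It was 0.98 with a floor at the 40th percentile, and the gene did not pass with no filter. Acaa1b, a peroxisomal thiolase, fell (-1.07 ± 0.21 SE, limma adjusted p = 0.0234), as did its dimmer probe set, at -1.57. Its near-identical relative Acaa1a gave -0.62 ± 0.26 SE (limma adjusted p = 0.164), and the probes may not tell the pair apart. Hsd17b4, the bifunctional enzyme of branched fatty acids and bile acid precursors, fell too (-0.94 ± 0.23 SE, limma adjusted p = 0.0434), as did Mlycd, malonyl-CoA decarboxylase (-0.97 ± 0.22 SE, limma adjusted p = 0.0355). The calls of Acaa1b and Hsd17b4 were lost under quantile normalization.

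Of 10 other peroxisomal oxidases, antioxidant and matrix enzymes tested, 3 fell and none rose by limma (5 lower and 0 higher at an unadjusted p under 0.05), with a median of -0.54. Agxt, which turns glyoxylate, the product of glycolate oxidation, into glycine, read 584.2 and 730.7 on the PEPCK-TAg arrays, against 2265.4 and 2816.0 on the WT arrays (log2 difference -1.95 ± 0.25 SE, limma adjusted p = 0.00504). Ephx2, an epoxide hydrolase, and Lonp2, a protease of the matrix, fell by 1.16 and 1.21 on the log2 scale, with the call of Lonp2 lost under quantile normalization. The oxidases Pipox (sarcosine and pipecolate) and Dao (D-amino acids) gave -0.39 ± 0.33 SE and 0.11 ± 0.39 SE and did not pass. Of 9 peroxins and division factors tested, 2 fell and none rose by limma (3 lower and 0 higher at an unadjusted p under 0.05), with a median of -0.21. Pex14, part of the import pore, read 684.4 and 467.6 on the PEPCK-TAg arrays, against 1468.6 and 1393.8 on the WT arrays (-1.34 ± 0.27 SE, limma adjusted p = 0.0234). Of its 2 further probe sets, 1 passed (-2.41) and 1 did not (-0.62). Pex6, an ATPase that recycles the import receptor, fell by 1.11 on the log2 scale. The single gene of ether lipid synthesis tested, Gnpat, gave 0.20 ± 0.30 SE.

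**Figure D4:**
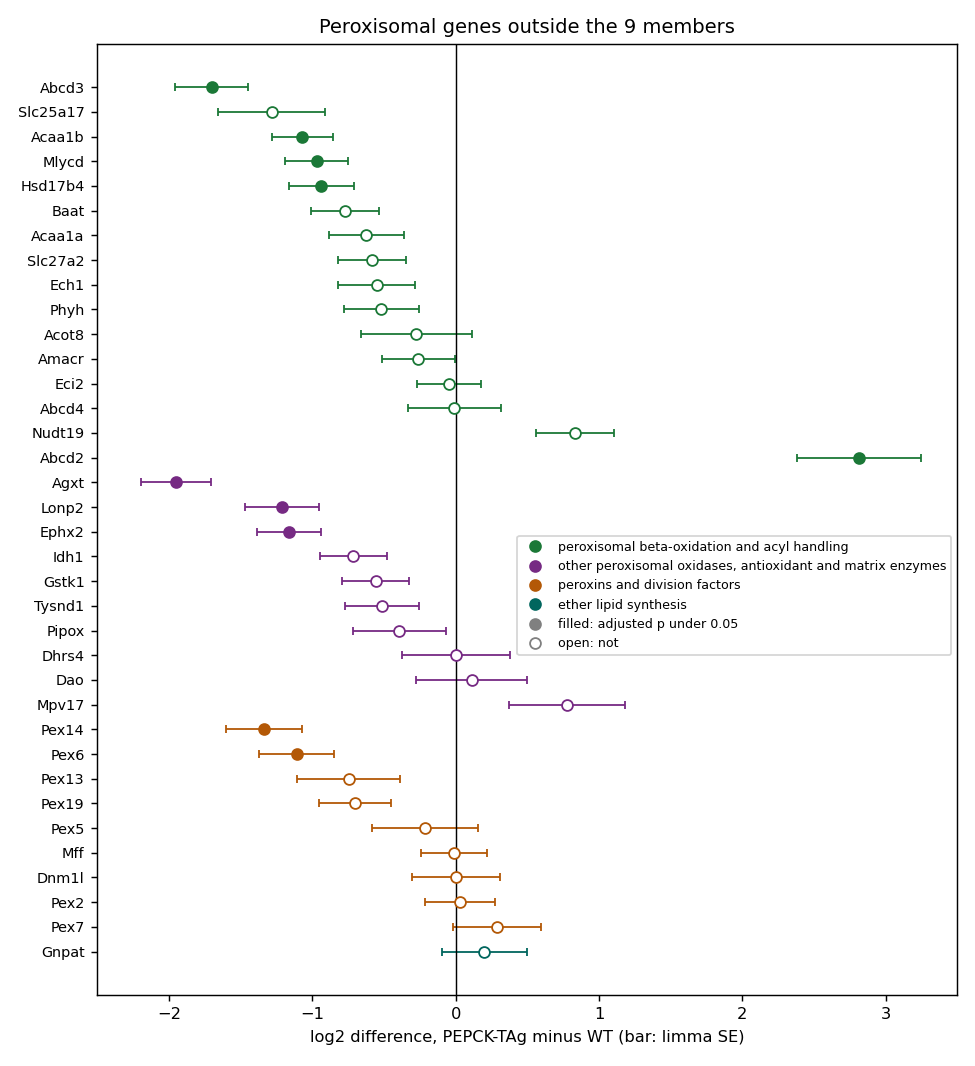
Log2 difference, PEPCK-TAg minus WT, of the 36 peroxisomal genes outside the 9 members (1 probe set per gene, bars show limma's SE, filled points passed an adjusted p of 0.05). The 9 filled points below 0 run from -1.95 (Agxt) to -0.94 (Hsd17b4), and the single filled point above 0 is Abcd2 at 2.81, which reached the filter level only on its PEPCK-TAg arrays.

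For the routes around Uox and Hao1, 6 of 13 listed genes could be tested, against 36 of 70 for the peroxisomal lists above. Of 6 genes of glyoxylate and purine breakdown tested, Agxt fell and the other 5 did not pass. Among these, Prodh2 gave -0.73 ± 0.23 SE (limma adjusted p = 0.0916). Xdh, which makes urate, gave -0.22 ± 0.23 SE and Grhpr, which reduces glyoxylate, 0.15 ± 0.31 SE. The 6 had a median log2 difference of -0.34, with 2 lower and 0 higher at an unadjusted p under 0.05 in limma. From a list of PPAR alpha and its targets outside the peroxisome, 17 genes were tested. Of these 2 fell and none rose by limma, beside 3.34% and 9.56% of all genes tested. At an unadjusted p under 0.05 in limma, 3 were lower and 4 higher. Of the 4, Ppargc1a reached the filter level only on the PEPCK-TAg arrays. Without it 3 of 16 were higher, beside 952 of the 5566 genes that did not enter through 1 group only. The median log2 difference of the 17 was -0.29 (-0.057 under quantile normalization). Cyp4a10, a hydroxylase of fatty acids, read 311.3 and 487.7 on the PEPCK-TAg arrays, against 1382.7 and 1784.5 on the WT arrays (-2.01 ± 0.30 SE, limma adjusted p = 0.00883), and its probes can match relatives. Cpt2, a mitochondrial carnitine acyltransferase, fell by 1.59 on the log2 scale (limma adjusted p = 0.00883). Ppara itself read 275.8 and 152.8 on the PEPCK-TAg arrays, against 393.0 and 159.5 on the WT arrays, groups that overlapped. The count for this list was 4 without WT 1, and 0 without either PEPCK-TAg array, with the station as a block or with no filter.

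Markers of blood cells also differed between the groups, and, as for the hepatocyte markers, their part in these results was not tested. Beside 9.56% of all genes tested, 7 of 10 erythroid markers were called higher, with summed signals of 10720 and 14867 against 3416.4 and 3519.7, and 9 of 14 myeloid markers, with 10572 and 15199 against 1946.9 and 1894.2. The erythroid marker Alas2 had a lower mean and did not pass (log2 difference -0.57 ± 0.35 SE). Of the called ones Epb42, Hemgn, Mpo, Ngp, S100a8 and S100a9 reached the filter level only on the PEPCK-TAg arrays. Without genes that did so through 1 group only, 5 of 8 erythroid and 5 of 10 myeloid markers rose by limma, beside 7.01% of the 5566 genes left. For kidney, where the Hao2 enzyme is known from rat, the markers Umod, Slc34a1, Kap and Slc22a6 lay below the filter level on all 4 arrays, and Lrp2 and Cubn did not pass. For bile ducts, Krt7, Krt19 and Epcam lay below it, and Cftr did not pass. The chip lot differed between the groups, so lot and group cannot be told apart. WT 2 was read on another type of scanner and PEPCK-TAg 2 washed on another fluidics station than the other 3 arrays. The ratio of 3′ to 5′ control signal for actin, a sign of RNA quality, was 3.82 and 3.14 on the PEPCK-TAg arrays, against 4.33 and 3.41 on the WT arrays. For Gapdh it was 4.57 and 2.90 on the PEPCK-TAg arrays, against 5.35 and 3.80 on the WT arrays. In each group both ratios were higher on replicate 1, and the replicate 1 arrays were those scanned on the same day.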

How the data were processed

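Per the labels, total liver RNA was hybridised to Affymetrix arrays, 1 per sample. The table deposited by the authors holds an intensity for each probe set on each array, a linear signal from MAS5 per the submitters' processing notes, with no version named there. The 2% trimmed mean was 250.2 on every array, so the arrays had been scaled to a common level, and detection calls were not used here. Signals were scaled again without the 66 controls (by at most 0.102%), raised to the 20th percentile (10.6) and log2-transformed. Probe sets above the 40th percentile (41.3) on at least 2 of 4 arrays were tested with limma 3.58.1 in R 4.3.3 (intensity trend, two-sided, Benjamini-Hochberg, threshold 0.05). The script was tested on simulated data. With 2 arrays a group the smallest p of an exact permutation test is 0.333, and the number of arrays limits precision.

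Of 12422 probe sets, 10833 had 1 platform symbol, 396 several and 1193 none; 10817 matched RefSeq (GRCm38.p6), whose promoters were used. Genes named are the members, the called genes of each list (at most 4 each way, smallest p), Acaa1a, Hsd17b4, Abcd3, Pex14, Ppara, Cyp4a10 and the 5 nearest to Hao2. A few others (Pipox, Dao, Gnpat, Prodh2, Xdh, Grhpr, Ppargc1a, Alas2) were named after their values were seen. The members and lists were chosen with earlier results of these data known. Alternatives covered normalization, floor, filter, variance trend, threshold, each array left out, and replicate number, fluidics station or scanner type as a block.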

Additional observations from a re-analysis of the deposited data

How the results depend on the processing

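The precision is set by 2 arrays a group and, for dim probe sets, by the floor. The excess of Hao2 over the median of the other members, 5.97 on the log2 scale, was 5.34 under quantile normalization, 7.10 and 4.01 with floors at the 10th and 40th percentiles, 6.41 with the fluidics station as a block and 6.49 in the same-day pair, and ran between 5.60 and 6.41 with an array left out. Uox and Scp2 93278_at turned sign under quantile normalization, at 0.036 and 0.071, where bright probe sets shifted upward and the median downward. The calls over all probe sets numbered 985, and 165 with no filter, 1621 at an adjusted p of 0.1, 1873 with the replicate block, 0 with the station as a block (1432 at an unadjusted p under 0.05 in limma) and 0 to 1449 with an array left out. The calls among the other peroxisomal genes numbered 10 with Abcd2, and 0 with no filter or the station as a block, 5 without an intensity trend and 0 to 8 with an array left out. Those of the PPAR alpha list numbered 2, and 0 with no filter or the station as a block and 0 to 4 with an array left out. An array left out leaves a lone array, assumed to vary like the other group. The station block gave the same differences as leaving out PEPCK-TAg 2, the only array on its station, so it is no separate check. The scanner block likewise gave those without WT 2. The titles' replicate numbers give no sign of shared animals, and same-numbered arrays deviated together with a correlation of 0.25 over the probe sets tested. The replicate block raised the other peroxisomal calls to 14, of which 12 were lower and 2 higher. Chip lot as a random block, an alternative added after seeing the data, could not be estimated from these arrays. Where a value moved, the cause was not tested unless stated.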

Other observations

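Cyp4a14, a fatty acid hydroxylase known as a target of PPAR alpha, varied more within the groups than between them: it read 283.5 and 993.5 on the PEPCK-TAg arrays, against 269.5 and 3557.9 on the WT arrays. Its log2 difference was -0.88 ± 1.16 SE (limma adjusted p = 0.646). Vnn1 and Pdk4, further targets of that receptor, gave 1.28 ± 0.46 SE and 0.88 ± 0.31 SE and did not pass (limma adjusted p = 0.119 for each). Slc25a17, a carrier of the peroxisomal membrane, gave -1.28 ± 0.37 SE (limma adjusted p = 0.0715), with 620.9 and 296.4 on the PEPCK-TAg arrays against 1114.4 and 978.7 on the WT arrays. These genes were chosen after their values were seen.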
